A study of Mus musculus with 20 samples.

Results

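The unfolded protein response and the integrated stress response were followed through 10 genes, chosen by name: *Hspa5*, *Hsp90b1*, *Atf6*, *Ern1*, *Eif2ak3*, *Atf4*, *Ddit3*, *Trib3*, *Chac1* and *Asns*. They are 10 of the 25869 genes in the deposited RNA-seq table, and all 10 passed the filter on low reads in each of the 7 comparisons. The table holds 20 mouse libraries from a study of a mouse for CRISPR activation.

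MEFs, fibroblasts grown from mouse embryos, gave 10 libraries: 2 WT, 2 *dCas9a-SAM KI/+* without a guide, 2 *dCas9a-SAM KI/+* with sgNT, a non-targeting guide, and 4 *dCas9a-SAM KI/+* with sg*Bcl2*. The *dCas9a-SAM* allele expresses dCas9-VP64 and the MS2-p65-HSF1 activator from Rosa26 under the CAG promoter, in all cells, and a guide directs them to a promoter. The labels number MEF lines 1 and 2 in the groups without a guide, with sgNT and with sg*Bcl2*. The 4 sg*Bcl2* libraries are therefore 2 from line 1 (libraries 1 and 2) and 2 from line 2 (libraries 3 and 4). Their titles also mark libraries 1 and 3 as BCL2_1 and libraries 2 and 4 as BCL2_2. What this mark stands for is not stated, and both were taken as 1 group. The lymphoma lines, 4 IgM-positive and 2 IgM-negative, were grown from tumours of irradiated mice that received haematopoietic cells with the *Eµ-Myc* transgene, *dCas9a-SAM KI/+* and sg*Bcl2*. The 2 primary tumours are IgM-positive lymphoma tissue of the mice of IgM-positive lines 1 and 2, and may hold cells of the host. The titles and the descriptions of the tumours give the mice in opposite order, so tumours and lines were not paired. The 2 preB-ALL libraries are BCR-ABL1 (p190T/+) leukaemias, and their labels name neither *dCas9a-SAM* nor *Eµ-Myc*. They differ from each other in their alleles, named CreER-LSL-Erg (library 1) and Rag-Cre-Erg (library 2), and were sequenced in another run than all other libraries. Differences from preB-ALL and the run therefore cannot be told apart. The 15 mitochondrial genes of the table took 0% of the reads in both preB-ALL libraries, against 5.3% to 7.18% in the lymphoma lines and 2.24% to 2.9% in MEFs.

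Depth was 12474885 to 26678417 reads on genes per library, with the preB-ALL libraries lowest. *Bcl2*, the target of the guide, was at 46.8 to 71.8 CPM, the reads on the gene scaled to a fixed library total, in the sg*Bcl2* MEFs and at 13.4 and 13.7 CPM with sgNT. All 8 B cell markers were present in every lymphoma and leukaemia group, with sums of 1446 to 7487 CPM against 12.4 to 25.2 CPM in MEFs. The 10 fibroblast markers summed to 7729 to 14796 CPM in 9 MEF libraries. WT MEF library 2 stood apart at 2218 CPM, and its 7 macrophage markers summed to 218 CPM against 5.5 to 9.01 CPM in the 9 other MEF libraries. The fibroblast sum was 3.28 to 55.1 CPM in the lymphoma lines, 15.1 and 171 CPM in the tumours, and 1224 and 2609.8 CPM in preB-ALL. In preB-ALL, 7 of the 10 fibroblast markers reached 1 CPM in any library, and *Dcn* was at 0 in both. In bulk RNA, fewer cells of a type and less RNA per cell cannot be told apart. In the text, a value ± another is the mean ± SD unless SE is named, and n is the number of libraries. Levels and their order between libraries are given in CPM with no scaling factor, while the tests use scaled values. TMM scaling factors over all 20 libraries were 1.2268 and 1.324 in preB-ALL and 0.8776 to 0.9843 in the 9 MEF libraries other than WT MEF library 2. Such factors lower preB-ALL against MEFs.

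Secreted and membrane proteins fold in the endoplasmic reticulum (ER) with the help of chaperones. When unfolded proteins build up, the sensors ATF6, IRE1 (encoded by *Ern1*) and PERK (encoded by *Eif2ak3*) start the unfolded protein response. ATF6 is cut and becomes a transcription factor, and IRE1 splices the mRNA of *Xbp1*. PERK phosphorylates eIF2 alpha, as do the kinases GCN2, PKR and HRI, which respond to amino acid shortage, double-stranded RNA and haem shortage. This integrated stress response lowers protein synthesis as a whole while the translation of ATF4 rises. ATF4 drives genes of amino acid supply and the pro-apoptotic factor CHOP (encoded by *Ddit3*). In the B lineage, the response is best known from plasma cells, which secrete antibody. Asparagine synthetase is known in lymphoblastic leukaemia because of treatment with asparaginase.

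ATF6 acts with NF-Y on the ER stress response element, and ATF4 on the amino acid response element. RefSeq start site windows on GRCm38.p6, from 250 bases before to 50 bases after each start, were found for 9 of the 10 genes, all except *Atf6*. The first motif was searched as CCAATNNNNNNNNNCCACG on both strands. It was in the windows of *Hspa5* and *Hsp90b1*, against 39 of all 32851 windows (0.119%). The second was searched as TGATGNAA on both strands. It was in the windows of *Asns*, *Chac1* and *Trib3*, against 1304 of all windows (3.97%). No window held both motifs, and no matches overlapped. The *Trib3* match lay 14 to 21 bases after the start. The windows of *Atf4*, *Ddit3*, *Ern1* and *Eif2ak3* held neither string of letters. The stretches that hold the matches before the start are shown in the direction of the gene, with the matches in capitals. They come from chr2:34772015-34772053 (plus strand, *Hspa5*), chr10:86705523-86705666 (minus strand, *Hsp90b1*), chr6:7693215-7693242 (minus strand, *Asns*) and chr2:119351039-119351066 (plus strand, *Chac1*).
Hspa5: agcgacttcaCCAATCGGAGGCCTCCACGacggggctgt
Hsp90b1: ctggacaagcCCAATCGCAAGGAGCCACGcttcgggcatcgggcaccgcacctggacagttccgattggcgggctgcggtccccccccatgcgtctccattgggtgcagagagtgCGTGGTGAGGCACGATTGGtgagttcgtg
Asns: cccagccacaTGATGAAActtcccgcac
Chac1: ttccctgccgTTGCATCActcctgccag
The *Hspa5* match lay 65 to 47 bases before the start and the *Asns* match 23 to 16 bases before it. *Hsp90b1* held a match on each strand, and the *Chac1* match was on the strand opposite to the gene. Among the pathway genes listed for this report, the ER stress response element was in 6 of the 14 ER chaperone and folding enzyme genes with a window (*Calr*, *Canx*, *Pdia6*, *Creld2*, *Dnajc3* and *Ero1b*), and in 2 of 10 genes of ER-associated degradation (*Syvn1* and *Derl3*). It was in 0 of 19 amino acid supply genes. The amino acid response element core was in 7 of these 19 (*Pycr1*, *Pck2*, *Slc7a11*, *Slc1a4*, *Aars*, *Gars* and *Iars*) and in 0 of the 14 ER chaperone genes. It was also in 4 of 15 further ATF4 and CHOP targets (*Atf3*, *Nupr1*, *Vldlr* and *Fgf21*) and in *Herpud1*, 1 of 10 genes of ER-associated degradation. The other lists held neither motif.

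The most abundant of the 10 genes were the ER chaperones. Per kilobase of exon, in the mean of the 9 MEF libraries other than WT MEF library 2, *Hsp90b1* was at 451 CPM per kb and *Hspa5* at 246 CPM per kb. *Atf4* followed at 99.6, *Asns* at 54.3, *Ddit3* at 48.3, *Chac1* at 19.5, *Trib3* at 13.1, *Eif2ak3* at 12.2, *Atf6* at 9.1 and *Ern1* at 2.12 CPM per kb. In the mean of the lymphoma lines, *Hsp90b1* was again the highest, at 226 CPM per kb, with *Atf4* at 119 and *Hspa5* at 109 CPM per kb. At the lower end, *Trib3* was at 1.9, *Ern1* at 1.5 and *Chac1* at 0.985 CPM per kb, below *Atf6* at 17 CPM per kb. The mean of *Trib3*, and its place above *Ern1*, lean on IgM-positive line 3, at 6.98 CPM per kb against 0.32 to 1.59 in the other lines.

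*Hspa5* (chr2:34772090-34776529) encodes BiP, the HSP70 chaperone of the ER lumen that also holds the sensors inactive. It was at 779 and 6279.5 CPM in the WT MEFs, at 1048 and 981 CPM without a guide and at 863 and 979 CPM with sgNT. The sg*Bcl2* MEFs had 882, 864, 917 and 1014 CPM. The IgM-positive lines had 330.0, 449, 463 and 494 CPM, the IgM-negative lines 366 and 346 CPM, and the primary tumours 423 and 270.2 CPM. With no scaling factor, both preB-ALL libraries, at 1252 and 1152 CPM, were above every lymphoma library and above the 9 MEF libraries other than WT MEF library 2. Against MEFs, this order leans on the lack of scaling.

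*Hsp90b1* (chr10:86690841-86705444), which encodes GRP94, the HSP90 chaperone of the ER, was, like *Hspa5*, lower in all lymphoma libraries than in MEFs. WT MEFs were at 1133 and 6609.6 CPM, MEFs without a guide at 1415 and 1374 CPM, sgNT MEFs at 1106 and 1291 CPM, and sg*Bcl2* MEFs at 1285, 1164, 1325 and 1382 CPM. The IgM-positive lines had 567, 653, 624 and 871 CPM, the IgM-negative lines 587 and 521 CPM, the tumours 619.8 and 427 CPM and preB-ALL 1480.3 and 1687 CPM. No lymphoma library reached the lowest MEF library.

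*Atf6* (chr1:170704457-170868585) ran the other way. It was at 61.5 and 106 CPM in WT MEFs, 64 and 62.8 CPM without a guide, 69.8 and 74.3 CPM with sgNT, and 69.1, 61.1, 62 and 69.1 CPM with sg*Bcl2*. Levels were 134, 113, 115 and 103 CPM in the IgM-positive lines, 157 and 117 CPM in the IgM-negative lines and 122 and 141 CPM in the tumours. PreB-ALL, at 69.6 and 66.6 CPM, lay among the MEFs with no scaling factor, a place that leans on the lack of scaling. Thus the 6 lines and 2 tumours overlapped with no other library except WT MEF library 2.

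*Ern1* (chr11:106397620-106487796) had the lowest mean CPM per kb of the sensors in every group. It was at 17.5 and 27.2 CPM in WT MEFs, 19.3 and 18.4 CPM without a guide, 18.5 and 20 CPM with sgNT, and 13.4, 14.2, 16.2 and 18.1 CPM with sg*Bcl2*. In culture, the IgM-positive lines were at 12.9, 9.48, 13.7 and 7.57 CPM and the IgM-negative lines at 13 and 16.9 CPM. The tumours had 5.96 and 8.98 CPM and preB-ALL 4.94 and 4.65 CPM, the lowest of all groups.

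*Eif2ak3* (chr6:70844484-70905241) was highest in preB-ALL, at 183 and 257 CPM. WT MEFs had 61.7 and 23.3 CPM, MEFs without a guide 54.3 and 51.8 CPM, sgNT MEFs 62.4 and 59.8 CPM, and sg*Bcl2* MEFs 63.1, 66.4, 62.9 and 51.1 CPM. Among the lymphomas, IgM-positive lines had 53.5, 53, 32.4 and 40.8 CPM, the IgM-negative lines 34.7 and 24.3 CPM and the tumours 32.3 and 46.9 CPM. The highest of the 18 other libraries was 66.4 CPM (sg*Bcl2* library 2).

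*Atf4* (chr15:80255184-80257545), which encodes the transcription factor of the integrated stress response, was at 178 and 499 CPM in WT MEFs, 183 and 188 CPM without a guide, 159 and 156 CPM with sgNT, and 170.3, 169, 175 and 168 CPM with sg*Bcl2*. IgM-positive lines 1 to 3 had 186, 215 and 253 CPM, with line 4 just below line 3, the IgM-negative lines 187 and 145 CPM, the tumours 188 and 148 CPM and preB-ALL 291 and 392 CPM. Outside WT MEF library 2, the MEF groups and the lymphoma groups overlapped. ATF4 is controlled mainly through translation, which RNA-seq does not measure.

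Among the targets of ATF4, *Ddit3* (chr10:127290793-127296291), the CHOP gene, was at 58 and 325 CPM in WT MEFs, 46.1 and 56 CPM without a guide, 52.7 and 45.4 CPM with sgNT, and 30.4, 31.2, 30.7 and 36.9 CPM with sg*Bcl2*. It was at 5.88, 11.1, 4.97 and 5.88 CPM in the IgM-positive lines, 10.2 and 5.13 CPM in the IgM-negative lines, 12.8 and 7.93 CPM in the tumours, and 16.9 and 53.8 CPM in preB-ALL. Every lymphoma library was below every MEF and preB-ALL library.

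*Trib3* (chr2:152337425-152344060), a pseudokinase that dampens CHOP and AKT signalling, was at 24.6 and 274 CPM in WT MEFs, 35.6 and 37.1 CPM without a guide, 15.2 and 13.7 CPM with sgNT, and 23.8, 21.1, 23.2 and 44.5 CPM with sg*Bcl2*. IgM-positive lines 1 to 4 had 0.649, 3.22, 14.1 and 1.24 CPM, a 21.8-fold range, and the IgM-negative lines 3.05 and 0.819 CPM. The tumours had 2.37 and 0.299 CPM (54 and 6 reads) and preB-ALL 16.6 and 32.9 CPM. IgM-positive line 3 overlapped with sgNT MEFs.

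*Chac1* (chr2:119351242-119354326), which breaks down glutathione, was at 31 and 176 CPM in WT MEFs, 35.5 CPM in both libraries without a guide, 22.2 and 26.5 CPM with sgNT, and 23.1, 24.1, 24.8 and 63.9 CPM with sg*Bcl2*. In IgM-positive lines 1 to 4 it was at 0.487, 2.74, 4.74 and 0.747 CPM, and in the IgM-negative lines at 0.195 and 0.776 CPM (5 and 18 reads). The tumours had 3.42 and 0.0997 CPM (78 and 2 reads) and preB-ALL 4.07 and 9.78 CPM. Every MEF library was above every lymphoma and preB-ALL library. At 2 to 18 reads, the values of single lymphoma libraries carry a large counting error.

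*Asns* (chr6:7675165-7693209), the asparagine synthetase gene, had no such gap. WT MEFs had 129.8 and 252 CPM, MEFs without a guide 137 and 152 CPM, sgNT MEFs 94.9 and 93.3 CPM, and sg*Bcl2* MEFs 114, 108, 102 and 126 CPM. The IgM-positive lines had 108, 68.6, 105 and 94.5 CPM, the IgM-negative lines 163 and 143 CPM and preB-ALL 175 and 190.1 CPM. The primary tumours, at 39.1 and 57.7 CPM, were below all other libraries. The lymphoma lines had been cultured in a medium with added asparagine.

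**Figure D1:**
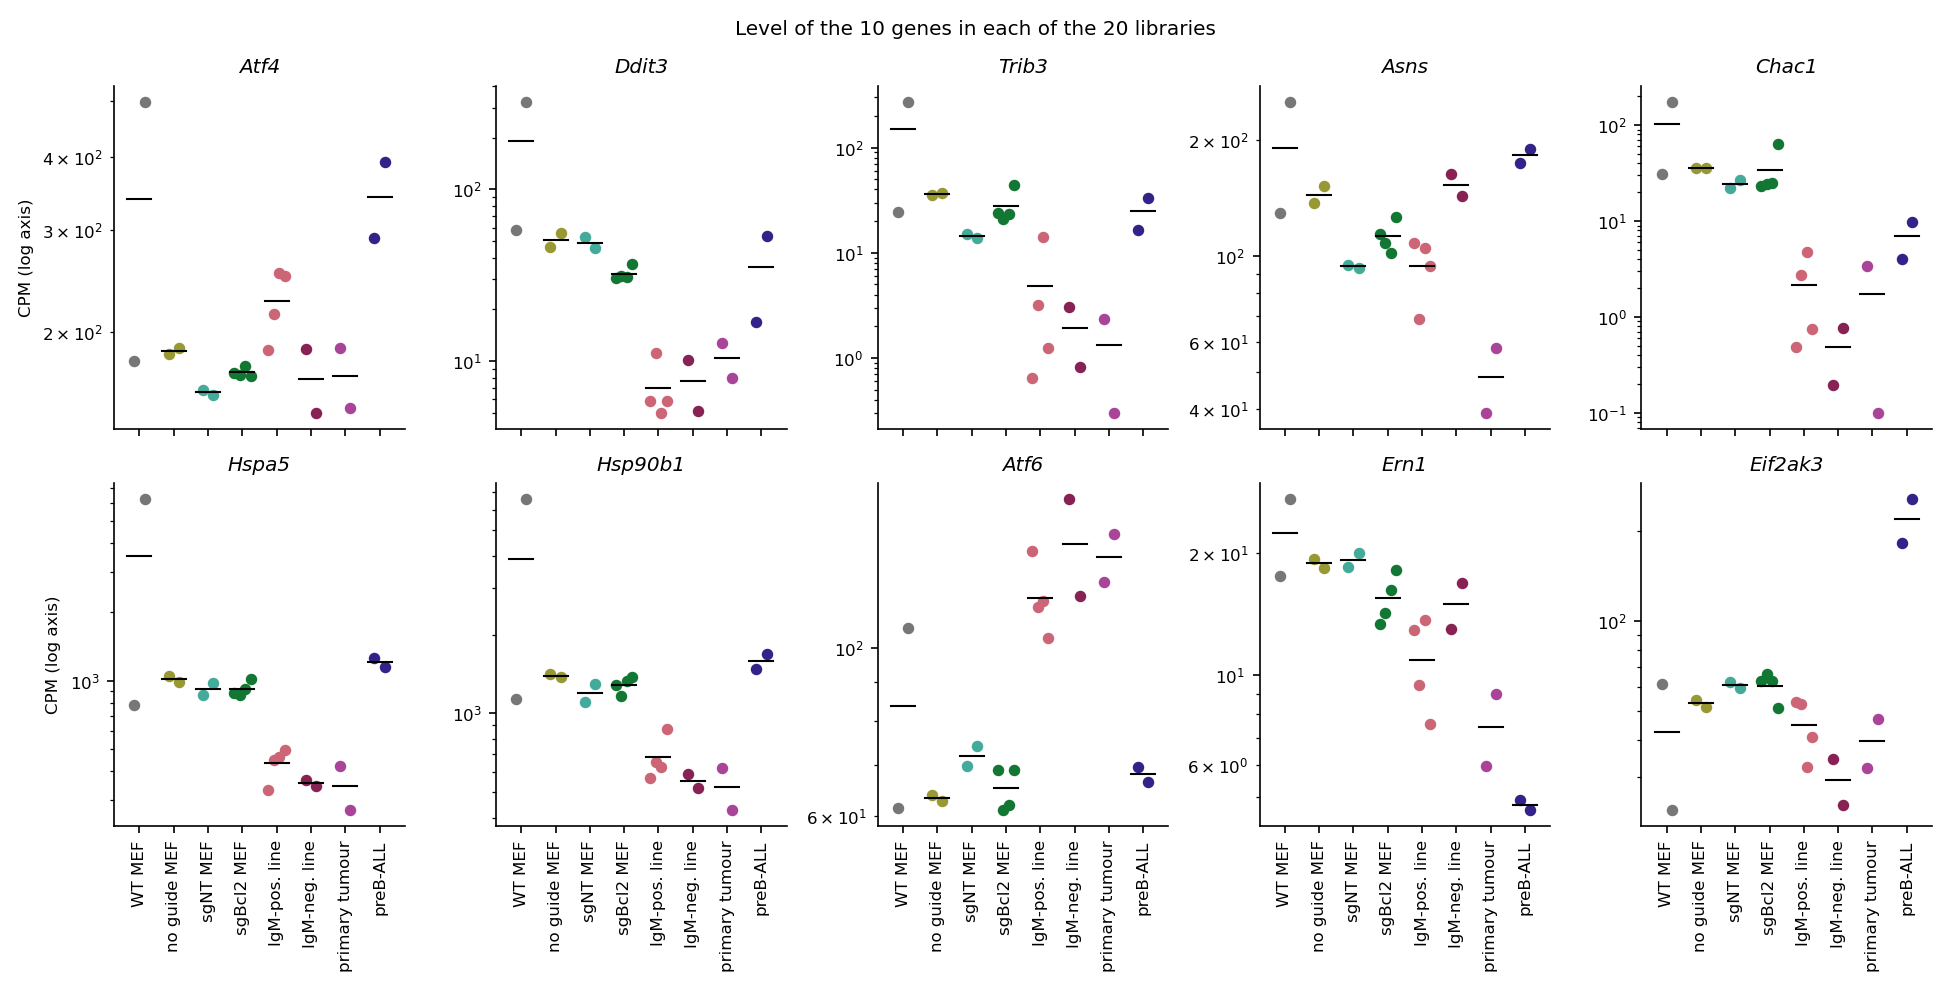
Level of each of the 10 genes in CPM (log axis) in the 8 groups, with 1 point per library and a line at the group mean. WT MEF library 2 lies far above the other MEFs for Hspa5 (6279.5 CPM), Hsp90b1, Atf4, Ddit3, Trib3 and Chac1, and preB-ALL stands alone for Eif2ak3 (183 and 257 CPM).

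WT MEF library 2 differed from the 9 other MEF libraries in most of the 10 genes, and this is given as values with no test, since the library was singled out for these values. *Trib3* was 11.5-fold the median of the 9 other MEF libraries, *Ddit3* 7.15-fold, *Hspa5* 6.85-fold, *Chac1* 6.63-fold, *Hsp90b1* 5.12-fold and *Atf4* 2.93-fold. *Asns* was 2.22-fold, *Atf6* 1.65-fold and *Ern1* 1.5-fold, and all 9 of these genes were above the highest of the 9 other libraries. *Eif2ak3*, at 0.378 of the median, was below the lowest. At least 2-fold above each other MEF library were 6 of the 10 genes, against 916 of 13392 genes with a mean of at least 1 CPM in MEFs (6.84%). At least 2-fold below each of them was 1 of the 10 genes, against 735 genes (5.49%). In each of the 9 other MEF libraries, at most 25 genes were that far above and at most 110 that far below the rest.

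The pathway lists varied in that library. Of 17 ER chaperone and folding enzyme genes, 8 were at least 2-fold above each other MEF library, among them *Pdia4*, a disulfide isomerase (2103 CPM against 241 to 339 CPM), *Hyou1*, an ER HSP70 family member (982 CPM, 5.94-fold the median of the others), and *Sdf2l1* (168 against 18.5 to 26.1 CPM). Of 25 amino acid supply genes, 6 were that far above, led by *Slc7a11*, the cystine transporter, at 231 CPM against 3.72 to 11.2 CPM. Its partner chain *Slc3a2* was at 1072 CPM against 95.2 to 166 CPM. Of 16 further ATF4 and CHOP targets with a mean of at least 1 CPM, 5 were that far above, among them *Atf3* (76.2 against 2.44 to 13.2 CPM) and *Gdf15*, a secreted stress hormone (172 against 11.1 to 31.7 CPM). In ER-associated degradation, the figure was 3 of 13, with *Derl3* at 25 CPM against 0.387 to 2 CPM. *Eif2ak2*, which encodes PKR, was the 1 gene of the 10 eIF2 kinase, phosphatase and eIF2B genes that was that far below (15.9 against 41.8 to 52.2 CPM), and 0 of them were that far above. Above were also 1 of 10 partners and transcription factors of the sensors, 2 of 12 cytosolic heat shock genes and 1 of 7 mitochondrial chaperones and proteases. The part of the low fibroblast sum and the raised macrophage sum of this library in these values was not tested.

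**Figure D2:**
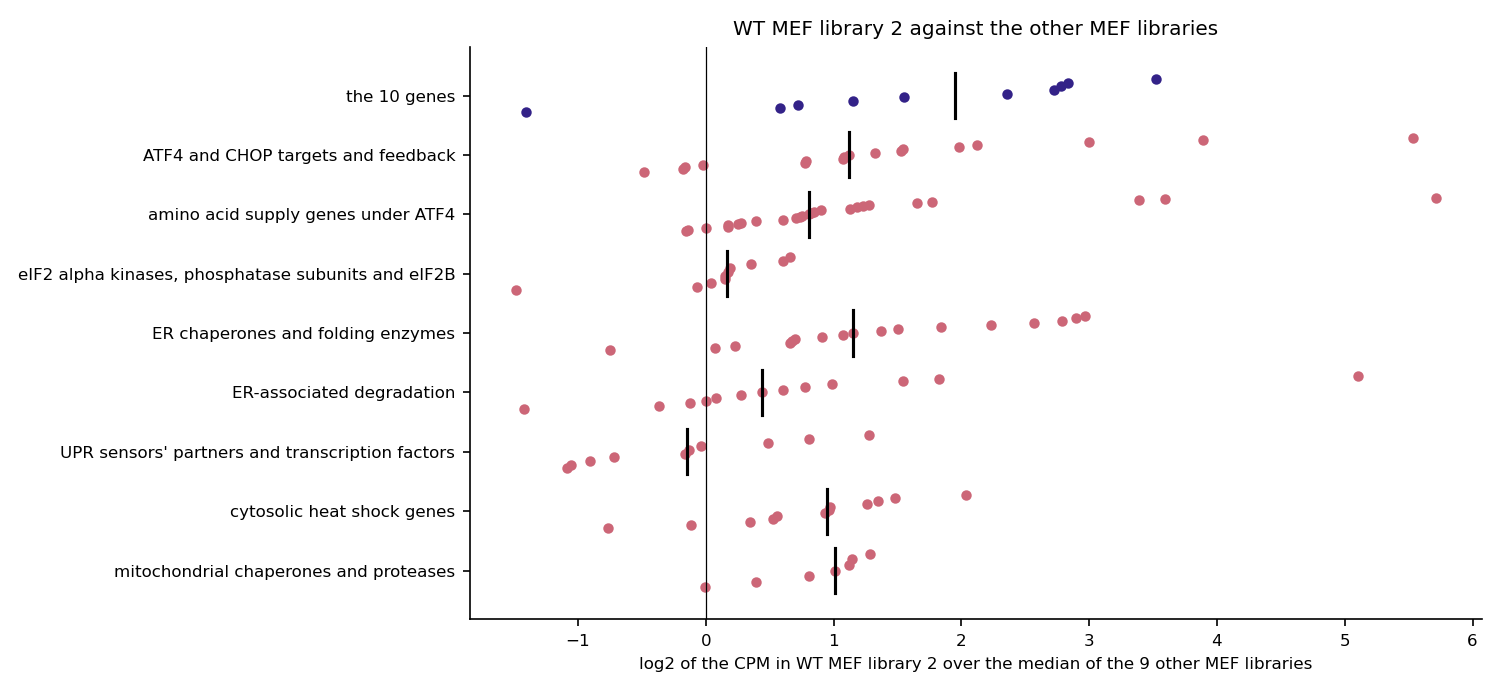
log2 of the CPM in WT MEF library 2 over the median of the 9 other MEF libraries, for the 10 genes and the genes of 8 pathway lists, with 1 point per gene and a line at the median of each row. Trib3, at 11.5-fold, is the rightmost of the 10 genes, and Eif2ak3, at 0.378 of the median, lies left of zero.

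MEFs with the activation system and a neutral guide were compared with WT MEFs. These groups differ in the allele, the guide and the embryos of origin, and the study's methods name an infection only for the *dCas9a-SAM* MEFs. Allele, guide, infection and embryo therefore cannot be told apart. None of the 10 genes passed the test, where limma called 0% of all genes (0 of 14560, with 589 at an unadjusted p under 0.05), as did edgeR and limma-voom. DESeq2 called 88 genes, among them 1 of the 10, *Trib3*. At an unadjusted p under 0.05 by limma was 1 of the 10 genes, *Asns* (-0.93, SE 0.329). The largest difference was that of *Trib3*, 14.4 ± 1.07 CPM with sgNT against 149 ± 176 CPM in WT, a log2 fold change of -2.49 (SE 1.158) with an adjusted p of 0.8 by limma. None of the genes of the 8 lists passed, and the ER chaperone list had a median log2 fold change of -0.6 against 0.02 over all genes. This comparison turned on WT MEF library 2. Without it, 2 of the 10 genes were lower with sgNT than in WT MEF library 1, where 11.2% of all genes were called. These were *Trib3* (-0.83, SE 0.14) and *Asns* (-0.53, SE 0.099), with adjusted p of 0.00492 and 0.00844 by limma. With 1 WT library left, that library is assumed to vary like the others. Without WT MEF library 1, the fit sets sgNT against the library that was singled out above, so its calls (9 of the 10 genes, where 53.4% of all genes were called) restate those values and are no test.

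MEFs with sgNT and MEFs without a guide carry the same allele. The sgNT MEFs were also infected with the virus that delivers the guide, so guide and infection cannot be told apart. With sgNT, 4 of the 10 genes fell and none rose, where 41.1% of all genes were called and 20.9% were lower. They were *Atf4* and its targets *Trib3*, *Asns* and *Chac1*. *Trib3* fell from 36.3 ± 1.04 to 14.4 ± 1.07 CPM (n = 2 each), a log2 fold change of -1.34 (SE 0.091, adjusted p = 5.45e-05 by limma). *Asns* fell by 0.63 on the log2 scale (SE 0.075, adjusted p = 0.000559 by limma) and *Chac1* by 0.56 (SE 0.112, adjusted p = 0.00589 by limma). *Atf4* fell by 0.25 (SE 0.064, adjusted p = 0.0178 by limma). With a block for the MEF line the adjusted p of *Atf4* was 0.0503, and without sgNT library 1 or either library without a guide it was 0.0719 to 0.125. The chaperones and the sensors did not pass: the log2 fold changes of *Hspa5* and *Hsp90b1* were -0.16 and -0.24, and those of *Atf6*, *Ern1* and *Eif2ak3* were 0.17, 0.02 and 0.19. *Ddit3*, also a target of ATF4, did not pass either, at 51.0 ± 6.99 CPM without a guide and 49.1 ± 5.15 CPM with sgNT (-0.07, SE 0.108, adjusted p = 0.643 by limma).

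The pathway lists moved in the same comparison as follows. Of 25 amino acid supply genes tested, 14 fell and 1 rose, with a median log2 fold change of -0.25 against 0 over all genes. The largest falls were those of *Slc7a5*, the leucine transporter (-1.5), *Slc7a11* (-1.37, 3.86 against 10.1 CPM) and *Cth*, which makes cysteine (-1.23, 4.17 against 9.82 CPM), and the rise was that of the glutamine transporter *Slc1a5* (0.49). Of 16 further ATF4 and CHOP targets, 6 fell, led by *Atf3* (-1.2), *Gdf15* (-0.55) and *Ddit4* (-0.54), and *Ero1a* rose (0.66). Of 17 ER chaperone and folding enzyme genes, only *Pdia6* fell (-0.4) and only *Sil1*, an exchange factor of BiP, rose (0.49). Among 12 cytosolic heat shock genes, 3 rose: *Hspa1b* (2.27, 291 against 58.7 CPM), *Hspa1a* (2.05, 45.6 against 10.7 CPM) and *Hsph1* (1.35, 268 against 103 CPM). *Hspa1a* and *Hspa1b* are near-identical, and how reads were shared between them is uncertain. Of 10 genes for eIF2 kinases, phosphatase subunits and eIF2B, *Eif2b3*, *Eif2s1* and *Ppp1r15b* fell (-0.47, -0.37 and -0.34), and *Eif2ak1*, which encodes HRI, rose (0.31). *Xbp1*, *Creb3l1* and *Creb3l2* fell (-0.3, -0.3 and -0.27) among 10 partners and transcription factors of the sensors, where *Traf2* and *Atf6b* rose (0.42 and 0.39). In ER-associated degradation, 2 of 13 genes rose, *Derl3* and *Erlec1* (1.36 and 0.6), and 2 fell, among them *Syvn1* (-0.3). Among 7 mitochondrial chaperones and proteases, *Lonp1* rose (0.49) and *Hspd1* fell (-0.48).

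The effect of activating *Bcl2* was read from sg*Bcl2* against sgNT MEFs, which shares the sgNT libraries with both comparisons above. Of the 10 genes, 2 passed the test, where 10.8% of all genes were called. *Ddit3* fell from 49.1 ± 5.15 CPM (n = 2) to 32.3 ± 3.08 CPM (n = 4), a log2 fold change of -0.51 (SE 0.109, adjusted p = 0.0231 by limma), against 4.24% of all genes called lower. All 4 sg*Bcl2* libraries were below every other MEF library, and the call was lost without sg*Bcl2* library 1, sgNT library 1 or sgNT library 2 (log2 fold changes of -0.48, -0.43 and -0.59, adjusted p of 0.0554, 0.195 and 0.0878 by limma). *Atf4* rose from 158 ± 1.63 to 171 ± 2.88 CPM (0.21, SE 0.054, adjusted p = 0.0476 by limma), against 6.61% called higher. The *Atf4* call was lost without a scaling factor (0.12, adjusted p = 0.191 by limma), when any 1 of the 6 libraries was left out (adjusted p of 0.061 to 0.251 by limma) and with the sg*Bcl2* libraries summed per MEF line (0.21, adjusted p = 0.0977 by limma). It was also lost with no filter on low values, with edgeR and with limma-voom (0.21 in each, adjusted p of 0.0585, 0.0593 and 0.0519).

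The largest difference in this comparison was that of *Trib3*, which did not pass (0.98, SE 0.278, adjusted p = 0.0577 by limma), with all 4 sg*Bcl2* libraries above both sgNT libraries. It passed with a block for the MEF line (0.98, adjusted p = 0.0451 by limma, where 14.6% of all genes were called) and with the sg*Bcl2* libraries summed per MEF line (1.01, adjusted p = 0.0252 by limma, where 1414 genes were called and *Atf4* was not). sg*Bcl2* library 4 had the highest *Trib3*, *Chac1* and *Ddit3* of its group. Without it, 3 of the 10 genes were called, *Trib3* (0.72), *Asns* (0.27) and *Ddit3* (-0.59), where 11.2% of all genes were called. That library was singled out by values of these same genes. Leaving it out narrows their spread (the SE of *Trib3* went from 0.278 to 0.094), so these calls are no test. Among the lists, *Cebpb* and *Stc2* rose (1.26 and 1.21) and *Nupr1* fell (-0.58) of 16 ATF4 and CHOP targets. *Slc7a5* and *Psat1*, of serine synthesis, rose (0.77 and 0.39) of 25 amino acid supply genes. *Manf*, a secreted ER protein, fell (-0.22) of 17 ER chaperone genes, *Edem3* fell (-0.27) of 13 degradation genes and *Hspa1b* fell (-0.62) of 12 heat shock genes. None of the genes of the other lists passed. With RLE scaling no gene of the degradation and heat shock lists passed, and without a scaling factor 3 heat shock genes and 1 gene of the eIF2 list were lower.

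**Figure D3:**
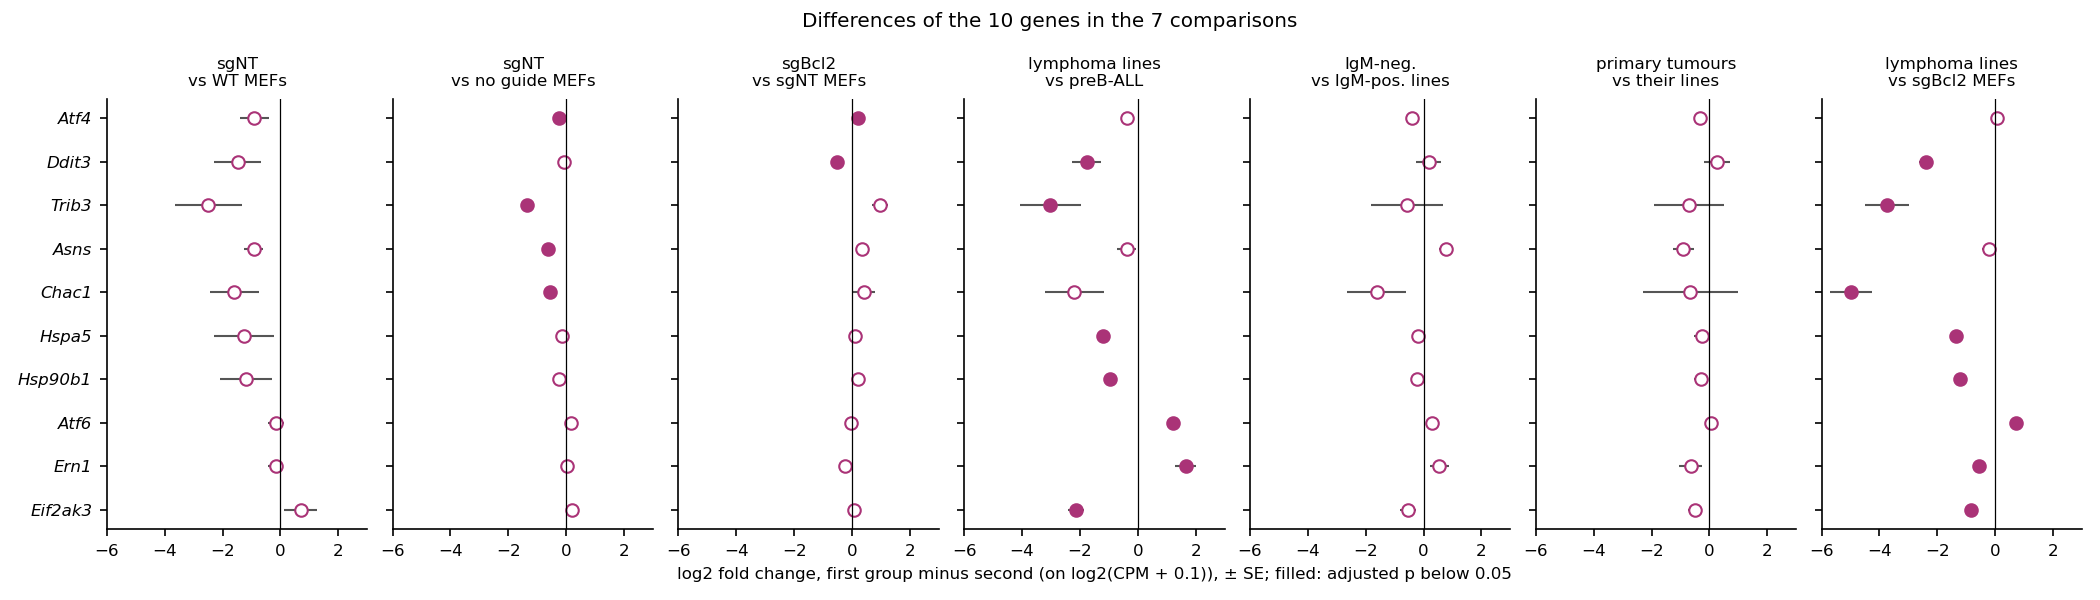
log2 fold change of each of the 10 genes in the 7 comparisons, first group minus second, with bars for the SE and filled points for an adjusted p below 0.05 by limma. From the left panel to the right, 0, 4, 2, 7, 0, 0 and 8 points are filled, and of the 10 genes only Atf6 is higher in the lymphoma lines than in both preB-ALL and sgBcl2 MEFs.

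Lymphoma lines against preB-ALL compares aggressive B-lineage malignancies with and without *Eµ-Myc* and sg*Bcl2*. Of the 10 genes, 7 passed the test, where 43.4% of all genes were called. The lymphoma lines were lower in *Hspa5*, *Hsp90b1*, *Eif2ak3*, *Ddit3* and *Trib3*, 5 genes in all, where 22.5% of all genes were lower. They were higher in 2 sensors, *Atf6* and *Ern1*, where 20.9% were higher.

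*Hspa5* was at 408 ± 69 CPM in the 6 lines and at 1202 ± 70.2 CPM in 2 preB-ALL libraries, a log2 fold change of -1.21 (SE 0.185, adjusted p = 0.00114 by limma). *Hsp90b1* was lower by 0.97 (log2 fold change -0.97, SE 0.198, adjusted p = 0.00496 by limma). *Eif2ak3* was lower, 39.8 ± 11.7 against 220.1 ± 51.7 CPM (-2.14, SE 0.285, adjusted p = 0.000551 by limma). *Atf6* was higher, 123 ± 19.3 against 68.1 ± 2.11 CPM (1.2, SE 0.186, adjusted p = 0.00121 by limma), as was *Ern1*, 12.3 ± 3.3 against 4.8 ± 0.208 CPM (1.65, SE 0.358, adjusted p = 0.00662 by limma). *Ddit3* (-1.77, SE 0.489, adjusted p = 0.0188) and *Trib3* (-3.02, SE 1.056, adjusted p = 0.0474) were lower by limma. *Chac1* had a log2 fold change of -2.2 (SE 1.015) with an adjusted p of 0.111, and *Atf4* and *Asns* both had one of -0.38 with adjusted p of 0.187 and 0.378 by limma. In CPM with no scaling factor, all 6 lines were below both preB-ALL libraries for *Atf4* and *Asns*. TMM factors over all 20 libraries were 1.2268 and 1.324 in preB-ALL and 0.9702 to 1.0776 in the lines. They lower preB-ALL against the lines, so this separation leans on the lack of scaling and is no result of its own.

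The 2 preB-ALL libraries differed most in *Ddit3* (3.18-fold), *Chac1* (2.4-fold) and *Trib3* (1.98-fold), each higher in library 2. Without preB-ALL library 2, 4 of the 10 genes passed, where 22.2% of all genes were called: *Hspa5*, *Hsp90b1*, *Atf6* and *Eif2ak3*. *Ddit3*, *Trib3* and *Ern1* then had log2 fold changes of -1.04, -2.62 and 1.51 with adjusted p of 0.218, 0.283 and 0.0682 by limma. *Trib3* also failed without preB-ALL library 1 (-3.49, adjusted p = 0.128 by limma), without any 1 of the lymphoma lines except IgM-positive line 3 (adjusted p of 0.059 to 0.0762), with no filter on low values (-3, adjusted p = 0.0557) and with edgeR (-2.3, adjusted p = 0.11). DESeq2 gave *Trib3* no adjusted p and called 6 of the 10 genes and 6135 of all genes. When the tumours replaced the lines derived from them, 5 of the 10 genes passed and 3668 of all genes, and *Ern1* (1.41, adjusted p = 0.0602 by limma) and *Trib3* (-3.28, adjusted p = 0.0783) did not. Without a scaling factor, the median of all genes moved by -0.35 and *Atf4* passed as an 8th gene (-0.74, adjusted p = 0.0293 by limma), with no change of direction among the 10. Of all genes, 6091 were then called. The fibroblast sum was higher in preB-ALL than in the lines, 2609.8 CPM in library 1 and 1224 CPM in library 2. Only part of that list carried it: 7 of 10 markers reached 1 CPM in any preB-ALL library, and *Dcn* was at 0 in both. The part of the fibroblast sum in these results was not tested. Without the mitochondrial genes, 7 of the 10 genes passed, as with them, and 5974 of all genes were called. The plasma cell list summed to 663 and 1096 CPM in preB-ALL and 276 to 812 CPM in the lines, and its part was not tested either. That list includes *Xbp1*, itself a gene of this response, and summed to 185 to 224 CPM in MEFs.

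Among the pathway lists, the ER chaperone and folding enzyme list moved with *Hspa5* and *Hsp90b1*: 7 of 17 genes were lower and none was higher in the lymphoma lines, with a median log2 fold change of -0.46 against -0.07 over all genes tested. With RLE scaling 9 were lower, and without a scaling factor 11, with a median of -0.82. The largest were *Ero1b*, an ER oxidase (-2.46, 16.7 against 113 CPM), *Dnajc3*, a BiP cochaperone (-1.1), and *Pdia3* (-0.87, 362 against 821 CPM). Of 10 partners and transcription factors of the sensors, 4 were lower: *Creb3l2* (-5.46), *Creb3l1* (-4.54), *Xbp1*, the target of IRE1 (-2.32, 24.8 against 155 CPM), and *Creb3* (-1.13). *Rtcb*, the ligase that joins spliced *Xbp1*, was higher (0.6), a call that was lost without a scaling factor. *Creb3l1* and *Creb3l2* were at means of 15 and 13.7 CPM in preB-ALL, 48.1 and 49 CPM in sg*Bcl2* MEFs, and 0.46 and 0.252 CPM in the lines. Of 15 ATF4 and CHOP targets tested, 6 were lower, led by *Nupr1* (-3.62), *Gdf15* (-3.11) and *Tnfrsf10b*, a death receptor (-2.79), and *Ero1a* was higher (2.43, 211 against 45 CPM).

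In the lists of other compartments and of translation, of 12 cytosolic heat shock genes, 5 were higher and none was lower, led by *Hsp90aa1* (2.75, 1187 against 258 CPM), *Hspa8* (2.55, 2504 against 549 CPM) and *Hsph1* (2.36, 249.9 against 64.1 CPM). Of 7 mitochondrial chaperones and proteases, 6 were higher, led by *Hspd1* (2.6, 1452 against 308 CPM), *Hspe1* (1.83) and *Trap1* (1.58). Of 10 genes for eIF2 kinases, phosphatase subunits and eIF2B, 5 were higher, led by *Eif2b3* (1.1), *Eif2b4* (1.06) and *Eif2s1*, which encodes eIF2 alpha (1.03). *Eif2ak2* was lower (-1.25), like *Eif2ak3*. Of 25 amino acid supply genes, 5 were higher, led by the arginine transporter *Slc7a1* (1.57), *Eprs* (1.41) and *Phgdh* (1.18), and *Slc7a11* was lower (-3.27, 0.866 against 11.2 CPM). Without a scaling factor, the amino acid supply list had 3 higher and 3 lower genes, and its median went from 0.32 to -0.04. Under the same setting, the eIF2 list had 2 higher and 2 lower, the heat shock list 4 higher and 1 lower, and the mitochondrial list 4 higher. In ER-associated degradation, *Edem3* was higher (2.01) and *Erlec1*, *Os9* and *Derl2* were lower (-0.99, -0.85 and -0.59). The lower genes of that list were 4 with RLE scaling and 5 without a scaling factor, where its median went from 0.01 to -0.35.

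Lymphoma lines against sg*Bcl2* MEFs sets the lines beside other cells with the same guide target, and 81.3% of all genes were called. Of the 10 genes, 8 passed, and 7 of them were lower in the lines, where 45% of all genes were lower and 36.3% higher. This comparison shares the lymphoma lines with the one against preB-ALL. *Chac1*, *Trib3* and *Ddit3* were lower: *Chac1* was at 1.61 ± 1.78 against 34 ± 20 CPM (-4.98, SE 0.725, adjusted p = 8.31e-05 by limma), *Trib3* at 3.85 ± 5.16 against 28.1 ± 11 CPM (-3.74, SE 0.748, adjusted p = 0.00084) and *Ddit3* at 7.18 ± 2.71 against 32.3 ± 3.08 CPM (-2.4, SE 0.245, adjusted p = 4.81e-06). *Hspa5* and *Hsp90b1* were lower by 1.36 and 1.21 (log2 fold changes -1.36 and -1.21, SE 0.122 and 0.13, adjusted p = 1.6e-06 and 7.09e-06 by limma). *Atf6* was higher (0.73, SE 0.127, adjusted p = 0.000326) and *Eif2ak3* lower (-0.84, SE 0.201, adjusted p = 0.00275). *Ern1* was lower (-0.55, SE 0.232, adjusted p = 0.0494), a call that was lost without sg*Bcl2* library 1, 2, 3 or 4, without IgM-positive line 1, 2, 3 or 4, or without IgM-negative line 1 (adjusted p 0.0514 to 0.134 by limma), without a scaling factor (-0.37, adjusted p = 0.144), with no filter (adjusted p = 0.0623), with edgeR (adjusted p = 0.0657) and with the sg*Bcl2* libraries summed per MEF line (-0.6, adjusted p = 0.135). *Atf4* and *Asns* did not pass, with log2 fold changes of 0.07 and -0.21 and adjusted p of 0.674 and 0.414. For *Ern1* and *Eif2ak3*, the libraries of both groups overlapped.

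In the pathway lists, of 17 ER chaperone genes, 11 were lower in the lines than in sg*Bcl2* MEFs, led by *P4hb* (-2.21), *Calr* (-1.93) and *Pdia3* (-1.88), and 3 were higher, *Ero1b* (1.55), *Sdf2l1* (1.33) and *Fkbp2* (0.44). Of 16 ATF4 and CHOP targets, 13 were lower and none higher, led by *Vldlr* (-10.02), *Nupr1* (-8.52) and *Tnfrsf10b* (-6.7), with a median of -3.39 against -0.27 over all genes. *Vldlr* and *Nupr1* were at means of 0.0584 and 0.192 CPM in the lines, where the added 0.1 CPM bounds the fold change. Of 25 amino acid supply genes, 13 were higher (8 with RLE scaling, a median of 0.35 in place of 0.54), led by *Slc1a5* (3.04, 505 against 53.9 CPM), *Slc7a5* (2.05, 373 against 79.7 CPM) and *Shmt2* (1.81), and 4 were lower, led by *Slc7a3* (-2.98), *Slc7a11* (-2.6) and *Sars* (-0.93). Of the eIF2 list, 9 of 10 were higher, led by *Eif2s1* (1.5), *Ppp1r15b* (1.32) and *Eif2b1* (1.27), and *Eif2ak2* was lower (-1.14). Of the mitochondrial list, 6 of 7 were higher (4 with RLE scaling), led by *Trap1* (2.14), *Hspd1* (2.1) and *Hspe1* (0.8). The heat shock list split, with 5 higher, led by *Hsp90ab1* (1.22), *Hsp90aa1* (0.9) and *Hspa8* (0.6), and 5 lower, led by *Hspb1* (-8.1), *Hspa1a* (-4.62) and *Hspa1b* (-4.54). Its median of -0.1 was 0.08 without a scaling factor, which moved the median of all genes by 0.17. In ER-associated degradation, 4 of 13 were higher, led by *Derl3* (2.64), *Syvn1* (1.95) and *Herpud1* (1.09), and 6 lower, among them *Erlec1* (-2.08) and *Os9* (-0.91). Of 10 partners and transcription factors, 4 were higher, led by *Nfyb* (1.03), *Rtcb* (1) and *Mbtps2* (0.48), and 5 lower, led by *Creb3l2* (-7.77), *Creb3l1* (-6.72) and *Creb3* (-3.77). The fibroblast sum, 11039.9 to 14796 CPM in sg*Bcl2* MEFs and 3.28 to 55.1 CPM in the lines, differed between the groups in all of these, and its part was not tested.

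**Figure D4:**
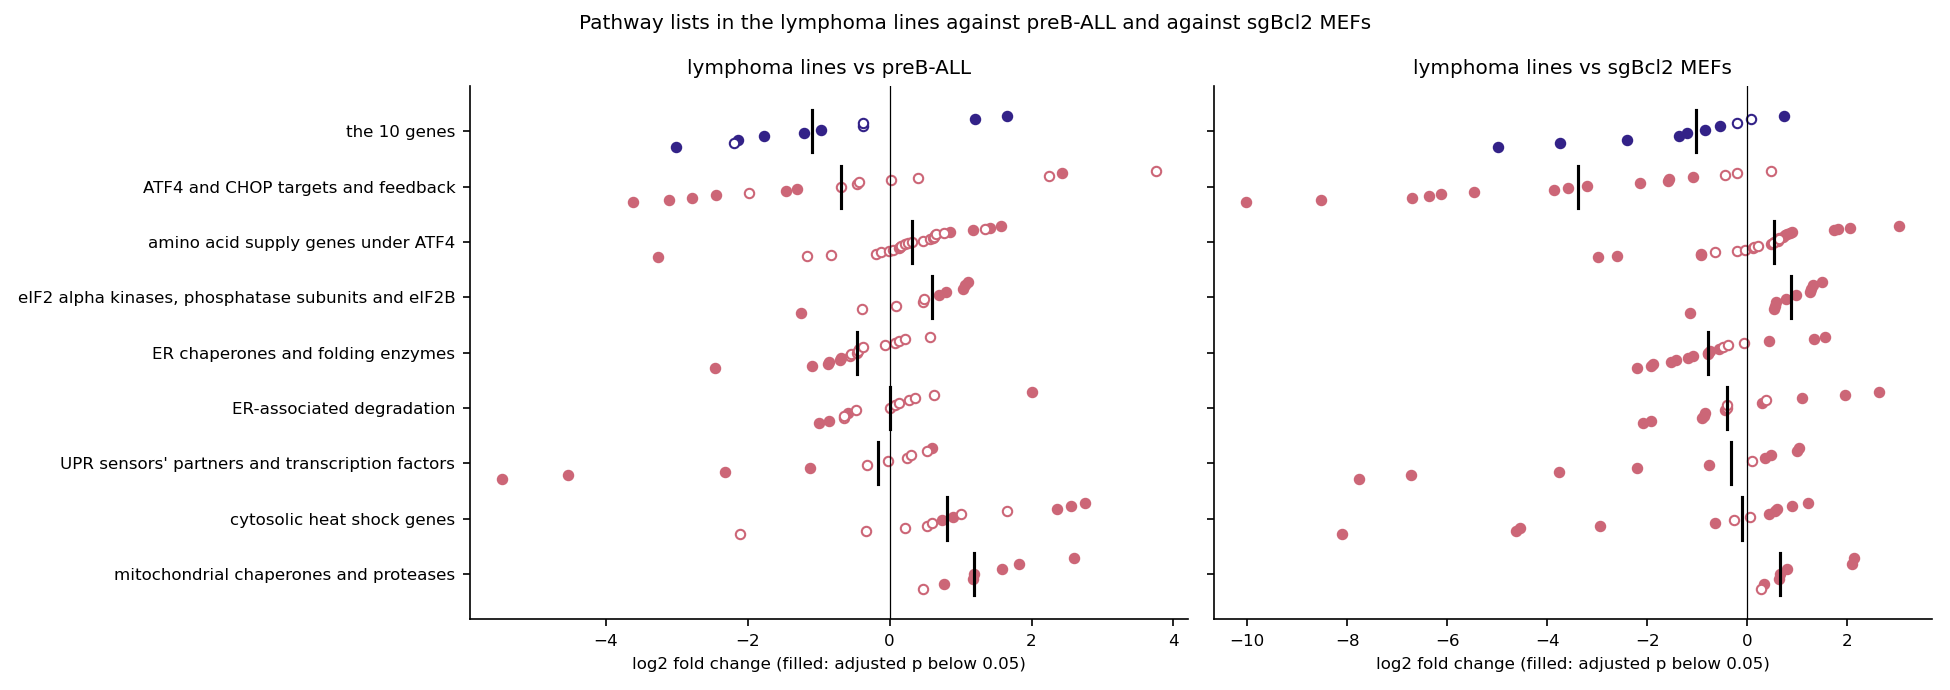
log2 fold change of the 10 genes and of the genes of 8 pathway lists in the lymphoma lines against preB-ALL (left) and against sgBcl2 MEFs (right), with 1 point per gene, filled for an adjusted p below 0.05 by limma, and a line at the median of each row. ER chaperones lie mostly left of zero and mitochondrial chaperones right of it on both sides, with medians of -0.46 and 1.19 against preB-ALL.

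Between IgM-negative and IgM-positive lines, none of the 10 genes passed, where limma called 0.597% of all genes (74 of 12386). No member passed with edgeR, DESeq2 or limma-voom either, where 24, 749 and 1 of all genes were called. At an unadjusted p under 0.05 by limma were 1397 of all 12386 genes and 1 of the 10. This was *Asns*, at 153 ± 14.3 CPM in 2 IgM-negative lines and 93.9 ± 17.8 CPM in 4 IgM-positive lines. The groups did not overlap for *Asns* (0.78, SE 0.234, adjusted p = 0.303 by limma). The largest difference was that of *Chac1*, 0.486 ± 0.411 against 2.18 ± 1.98 CPM (-1.62, SE 1.01, adjusted p = 0.592 by limma). It was -0.85 without IgM-negative line 1, -1.08 without IgM-positive line 3, -2.38 without IgM-negative line 2 and -0.89 with a pseudocount of 1 CPM. None of the genes of the 8 lists passed.

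Primary tumours against their lines compares tissue with culture, for IgM-positive lines 1 and 2. None of the 10 genes passed, where limma called 0.33% of all genes (42 of 12719, with 3295 at an unadjusted p under 0.05), and 0 of the 10 had an unadjusted p under 0.05. edgeR, DESeq2 and limma-voom called none of the 10 either, where they called 0, 2100 and 0 of all genes. The largest difference was that of *Asns*, 48.4 ± 13.2 CPM in the tumours and 88.1 ± 27.6 CPM in the lines (-0.9, SE 0.352, adjusted p = 0.206 by limma), and both tumours were below both lines. With the mice of the titles as a block, *Asns* passed (-0.9, adjusted p = 0.014 by limma), where 28.3% of all genes were called. With the mice of the descriptions it did not (adjusted p = 0.436), where 0 genes were called. The log2 fold change of *Asns* was -1.28 without IgM-positive line 2, -0.54 without IgM-positive line 1, -0.57 without tumour 1 and -1.2 without tumour 2. None of the genes of the 8 lists passed, and the amino acid supply list had a median of -0.69 against 0.01 over all genes. The 7 macrophage markers summed to 28.1 and 18.9 CPM in the tumours and 5.8 and 6.15 CPM in the 2 lines, and their part was not tested.

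Correlations of scaled log2 values across the 20 libraries are given as a description, since libraries of a group share cell type and sequencing run. *Hspa5* and *Hsp90b1* had r = 0.99, with and without WT MEF library 2. *Trib3* had r = 0.93 with *Chac1*, 0.87 with *Ddit3* and 0.91 with *Hspa5*, and 0.92, 0.83 and 0.93 without that library. *Atf4* had r = 0.42 with *Ddit3*, its target, and 0.02 without WT MEF library 2. It had r = 0.65 with *Hspa5*, and 0.29 without that library. *Atf6* ran against *Eif2ak3* (r = -0.77) and against *Hspa5* (r = -0.57, and -0.89 without WT MEF library 2). The gene most like each member among 16483 genes was *Hsp90b1* for *Hspa5* and the reverse (r = 0.993), *Chac1* for *Trib3* (0.929), *Calr* for *Chac1* (0.95), *Tnnc1* for *Ddit3* (0.964), *Nes* for *Ern1* (0.969), *Gm4786* for *Atf6* (0.948), *Kcna5* for *Eif2ak3* (0.887), *Kctd6* for *Asns* (0.872) and *Chrnd* for *Atf4* (0.845). The likeness of *Atf4* and *Chrnd* was 0.654 without WT MEF library 2, and those of the other pairs were 0.859 to 0.987.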

How the data were processed

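RNA-seq of 20 mouse libraries was used. Per the labels and the study's methods, the authors aligned reads to GRCm38 with Rsubread, counted them per Entrez gene and deposited CPM values, with no log and no scaling factor; strand use was not given in the sources used here. All CPM values (100%, tolerance 0.01) were whole multiples of 1 read, so reads were recovered. They were scaled by TMM (edgeR 4.0.16), log2(CPM + 0.1) was fitted with limma 3.58.1 (eBayes with trend) on the libraries of each comparison, with genes kept by filterByExpr, and the Benjamini-Hochberg method was applied over all genes tested, at 0.05. A fold change on this scale understates low genes. Alternatives were RLE or no scaling, pseudocounts of 0.5 and 1, no filter, edgeR, DESeq2 1.42.0, limma-voom, leaving out each library, blocks, sg*Bcl2* libraries summed per MEF line, all 4 IgM-positive lines, tumours in place of their lines and no mitochondrial genes. R 4.3.3 and Python 3.11.15 with matplotlib 3.10.9 were used. The code was tested on simulated data. Symbols came from NCBI's GRCm38.p6 gene table (25242 of 25869 identifiers matched, and *Ero1a*, *Ero1b* and *Mars1* through older names), promoters from RefSeq and exon lengths from GENCODE on GRCm38.

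The 10 genes, the pathway and marker lists and the tests were chosen with earlier results of these data known. All 10 genes are named in every group, and statistics are given for called members and the largest difference in each comparison. List genes named are up to 3 called per direction, or up to 5 where few were called, and some results that fall under this rule are not reported here. MEF lines were numbered in the labels, and the number was used as a block only as an alternative, as were the mice of the tumours. The correlation of line 1 minus line 2 differences across 9898 genes was 0.551 between sgNT and sg*Bcl2* (0.279 without genes on X and Y) and -0.161 between no guide and sgNT. Where the labels do not state separate cultures, p-values measure the spread between these samples, which may be technical. No pair of replicates agreed within sampling noise.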

Additional observations from a re-analysis of the deposited data

Results flagged for a closer look

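In sg*Bcl2* MEFs (n = 4), library 4, marked BCL2_2 of MEF line 2, was above the other 3 for *Chac1* (63.9 CPM against 23.1 to 24.8 CPM) and *Trib3* (44.5 CPM against 21.1 to 23.8 CPM). It was also above them for *Ddit3*, by a small step (36.9 CPM against 30.4 to 31.2 CPM), and there stayed below every MEF library without sg*Bcl2*. Among the 4 IgM-positive lines, line 2 stood above the others for *Ddit3* (11.1 CPM against 4.97 to 5.88 CPM). Among all 6 lymphoma lines, IgM-positive line 3 stood above the others for *Trib3* (14.1 CPM against 0.649 to 3.22 CPM). Each was picked by the gap of the highest library to the next, as a share of the range, in 30 tests of which chance alone gives about 1 in 20.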

How the results depend on the processing

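Among the called genes and the largest difference of each comparison, no direction turned under any alternative run. For sgNT against WT MEFs, where none was called, 5 of the 10 genes changed sign without WT MEF library 2: *Hspa5* (-1.26 to 0.17), *Hsp90b1* (-1.19 to 0.01), *Atf6* (-0.15 to 0.16), *Ern1* (-0.17 to 0.07) and *Eif2ak3* (0.7 to -0.08). The numbers of the 10 genes called moved as follows. For sgNT against WT MEFs, DESeq2 called 1 (*Trib3*, -3.29, adjusted p = 0.0434), and leaving out 1 library gave 0 to 9. For sg*Bcl2* against sgNT MEFs, 1 was called with no scaling factor, with no filter, with edgeR or with limma-voom, and leaving out 1 library gave 0 (without sg*Bcl2* library 1, sgNT library 1 or sgNT library 2) to 3. For lymphoma lines against preB-ALL, leaving out 1 library gave 4 to 8. For tumours against lines, the block by the mice of the titles gave 1 and all other alternatives 0. In the other comparisons, the count stayed within 1.5 times. The cause was not tested. With a replicate block by MEF line, *Atf4* lost its call for sgNT against no guide (-0.25, adjusted p = 0.0503), *Trib3* gained one for sg*Bcl2* against sgNT (0.98, adjusted p = 0.0451), and 2148 genes in place of 1592 were called for the latter, and no other call on the 10 genes changed. With the line numbers crossed, chosen after seeing the data, 6640 genes were called for sgNT against no guide, in place of 6029. Over all alternatives, the count of all genes called ranged from 0 to 8424 for sgNT against WT MEFs, from 4099 to 6640 for sgNT against no guide, from 156 to 2148 for sg*Bcl2* against sgNT, from 3177 to 6520 against preB-ALL, from 1 (limma-voom) to 749 (DESeq2) between IgM classes, from 0 to 3600 for tumours and from 10777 to 13738 against sg*Bcl2* MEFs. The depth limits *Chac1* and *Trib3* in the lymphoma libraries, where some values rest on 2 to 25 reads.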
